A study of Mus musculus with 9 samples.

Results

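The genes described here are 27 mouse genes of cholesterol handling, picked by name for their roles out of the 25652 genes in the deposited table. The choice was made with earlier results of these data known. Counts of members beside the share of all tested genes are therefore a description and no independent support. The members are 17 enzymes of cholesterol synthesis, 3 genes of sterol sensing and transfer, and 7 genes of efflux, storage and lysosomal release, the last group being one that foamy macrophages use. All 27 were in the table and all 27 passed the filter on low counts. They were measured by RNA-seq in tissue from wild-type (WT) mice that had received 200 µL of a talc suspension in saline, at 2.0 g/kg, in the left thoracic cavity through the diaphragm. Talc is a mineral that makes the lung adhere to the chest wall. Tissue was taken 30 min after talc (day 0), at day 3 and at day 9, with 3 libraries per day. The day 0 replicates are numbered 1, 2 and 3, and those of both later days 1, 3 and 4, and values below follow that order. Day 0 therefore also had talc, and untreated or saline-only mice were not analysed here. The labels name the tissue as adhesion tissue and, in the protocol, as left lung parenchyma attached to the chest. No source used here gives strain, age or sex.

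Cells make cholesterol from acetyl-CoA through mevalonate, isoprenoid pyrophosphates, squalene and lanosterol. When the endoplasmic reticulum is low in sterol, the transcription factor SREBP2 (Srebf2) is released and raises the genes of this route, among them Insig1, whose protein holds the SREBP2 complex back when sterol is plentiful. A macrophage that takes up dead cells or lipoproteins receives cholesterol through its lysosomes instead. There lysosomal acid lipase (Lipa) frees cholesterol from its esters, Npc2 and Npc1 pass it out, Soat1 esterifies it again for storage in droplets, and the transporters Abca1 and Abcg1 export it. Abca1 and Abcg1 are known targets of the oxysterol receptor LXR, whose alpha form is the product of Nr1h3.

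Promoters are shown for 5 members that carry the results: 3 genes that were lower at day 3 (Hmgcs1, Lss and Insig1) and the 2 with the largest log2 fold changes upward at day 3 (Abca1 and Lipa). Each line is the 250 bases before the transcription start, from RefSeq on GRCm38.p6, read 5′ to 3′ on the strand of the gene, and capitals mark CCAAT on either strand (ATTGG on the other strand) and, in Hmgcs1, the core of a sterol regulatory element.
Hmgcs1, chr13:119690101-119690350, plus strand: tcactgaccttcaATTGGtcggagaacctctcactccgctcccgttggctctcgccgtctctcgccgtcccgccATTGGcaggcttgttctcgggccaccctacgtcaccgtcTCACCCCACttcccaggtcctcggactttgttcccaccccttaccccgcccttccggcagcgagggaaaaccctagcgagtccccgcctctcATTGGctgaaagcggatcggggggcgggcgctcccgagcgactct
Lss, chr10:76531355-76531604, plus strand: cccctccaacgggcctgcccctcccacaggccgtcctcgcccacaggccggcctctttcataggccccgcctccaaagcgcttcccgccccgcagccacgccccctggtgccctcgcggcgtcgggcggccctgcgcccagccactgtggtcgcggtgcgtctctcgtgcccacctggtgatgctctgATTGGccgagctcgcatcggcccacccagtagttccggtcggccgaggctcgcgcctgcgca
Insig1, chr5:28071162-28071411, plus strand: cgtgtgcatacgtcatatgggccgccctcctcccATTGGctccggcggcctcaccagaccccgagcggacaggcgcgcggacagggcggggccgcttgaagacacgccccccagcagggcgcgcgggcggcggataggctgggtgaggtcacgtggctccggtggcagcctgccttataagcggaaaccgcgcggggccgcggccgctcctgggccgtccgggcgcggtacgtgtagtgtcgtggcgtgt
Lipa, chr19:34527475-34527724, minus strand: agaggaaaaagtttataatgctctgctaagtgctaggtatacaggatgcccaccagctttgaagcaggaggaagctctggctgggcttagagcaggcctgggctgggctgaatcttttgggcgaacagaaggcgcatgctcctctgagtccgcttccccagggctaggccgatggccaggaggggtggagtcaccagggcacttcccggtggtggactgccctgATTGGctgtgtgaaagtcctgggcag
Abca1, chr4:53159896-53160145, minus strand: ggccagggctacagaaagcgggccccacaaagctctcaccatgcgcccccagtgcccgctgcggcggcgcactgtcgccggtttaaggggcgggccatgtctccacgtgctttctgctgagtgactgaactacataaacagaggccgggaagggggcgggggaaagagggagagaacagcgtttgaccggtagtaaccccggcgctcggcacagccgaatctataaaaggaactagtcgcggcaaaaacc
RefSeq windows from 250 bases before to 50 after the start were matched for 21 of the 27 members, with 25 windows. CCAAT, the box bound by NF-Y, a partner of SREBP2, was found on either strand in a window of all 16 matched genes of synthesis, sensing and transfer, that is in 84.2% of their 19 windows, and in 37.4% of all 32851 promoter windows. Of the 5 matched genes of efflux, storage and lysosome, 3 held it. The GC box GGGCGG was in 84.2% of the windows of the first group, 66.7% of the 6 windows of the second and 35.7% of all windows. The sterol regulatory element core TCACNCCAC was in 1.24% of all windows and, among the members, was matched in Hmgcs1 alone, with its first base at position -137 from the start. The perfect repeat of AGGTCA with 4 spacer bases, a form of the LXR element named DR4, was in 0.0152% of all windows and in none of the members' windows. No matches in the members' windows overlapped each other, no mismatch was allowed, and a match describes letters only.

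Library totals ran between 12769059 and 18701063 counts. Markers of the labelled tissue were uneven. The 10 alveolar type 2 markers summed to 5050 to 5570 CPM, read counts set relative to the size of each library, at day 0. At day 3 they summed to 178, 6020 and 110 CPM in replicates 1, 3 and 4, and at day 9 to 638, 2570 and 2840 CPM. Day 3 replicate 3 thus stood apart from the other day 3 libraries. In these markers it was the day 3 library close to day 0, and replicates 1 and 4 were far below day 0. Calls that change without day 3 replicate 3 are given with the results, and leaving it out does not make the day 3 tissue more like that of day 0. The 12 skeletal muscle markers summed to between 55900 and 131000 CPM in the 9 libraries, so muscle RNA was present in all of them. The labels do not say that the libraries of a day came from separate mice, so p-values measure the spread between these libraries, which may be technical.

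The clearest movement was in the genes that receive, store and export cholesterol. Of these 7 genes, 5 were higher at day 9 than at day 0 (Lipa, Soat1, Abca1, Abcg1 and Npc2), as were 15.2% of all tested genes. The rise was 8.88-fold for Lipa and between 1.92-fold and 3.51-fold for the others. None was lower, by edgeR, DESeq2 or limma-voom, and 0 had a lower level at an unadjusted p under 0.05. The 20 genes of synthesis, sensing and transfer moved less and both ways. At day 3, 4 of them were lower than at day 0 (Lss, Insig1, Nsdhl and Hmgcs1), by between 1.38-fold and 1.96-fold, and 1 was higher (Ebp). Among all tested genes 3.29% were lower and 12.9% higher at day 3. At day 9, 4 were lower than at day 0 (Fdft1, Insig1, Pmvk and Sc5d), against 5.54% of all tested genes, and 2 were higher (Ebp and Dhcr7). These counts use an adjusted p under 0.05 in the edgeR quasi-likelihood test over 14794 genes.

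**Figure D1:**
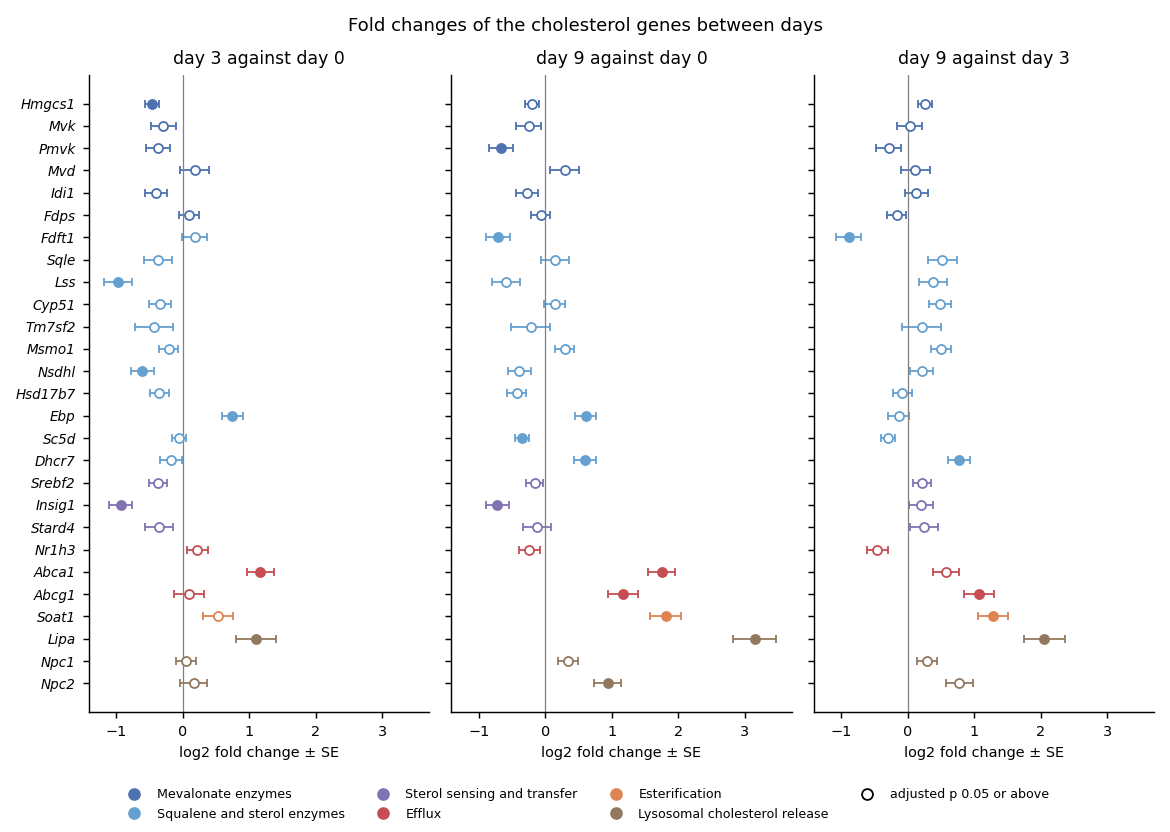
Log2 fold change (x axis, with SE as the bar) of each of the 27 genes (y axis, by role) in 1 panel per comparison of days, with 3 libraries per day; filled points have an adjusted p under 0.05. Lipa at day 9 against day 0, at 3.15, is the point farthest from 0, and all points of the synthesis enzymes lie between -1 and 1.

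Against day 0, the 27 genes thus had 3 higher and 4 lower members at day 3, and 7 higher and 4 lower members at day 9. Against day 3, 4 were higher at day 9 (Lipa, Soat1, Abcg1 and Dhcr7; 5.19% of all tested genes) and 1 lower (Fdft1; 3.66% of all). The median log2 fold change of the 20 genes of synthesis, sensing and transfer was -0.36 at day 3 and -0.21 at day 9 against day 0, and that of the 7 genes of efflux, storage and lysosome was 0.22 and 1.17. Over all tested genes the median was 0.05 at day 3 and 0.01 at day 9. Days that do not overlap, as given for single genes below, were common. At day 3, 24.2% of all tested genes lay wholly above day 0 and 12.9% wholly below (4 and 8 of the 27 members). At day 9 these were 29.3% and 28.2% (9 and 8 members), and at day 9 against day 3, 14.4% and 14.1% (9 and 3 members). Counts of calls moved with single libraries. Without day 3 replicate 3, 11 members were lower at day 3 than at day 0 (17.5% of all genes then tested) and 10 were higher at day 9 than at day 3 (16.4% of all). In that setting day 3 was replicates 1 and 4 alone, the libraries with the lowest alveolar type 2 markers.

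The mevalonate enzymes build isoprenoid pyrophosphates from acetyl-CoA. Hmgcs1, the synthase of an early step on the way to mevalonate, had 67.6, 61.6 and 72.9 CPM at day 0, 46.3, 52.5 and 48.1 CPM at day 3, and 57.7, 62.6 and 56.1 CPM at day 9. All 3 day 3 libraries were below all 3 day 0 libraries, while days 9 and 0 overlapped. Its log2 fold change was -0.46 (SE 0.101, adjusted p = 0.0189) at day 3 against day 0, and -0.20 (SE 0.101, adjusted p = 0.199) at day 9 against day 0. Pmvk, which adds the second phosphate to mevalonate, had 18.1, 16.7 and 19.9 CPM at day 0, 12.1, 17.8 and 12.4 CPM at day 3, and 9.71, 12.6 and 12.2 CPM at day 9. Every day 9 library was below every day 0 library, and day 3 replicate 3 lay within the day 0 range. Pmvk fell by 0.66 on the log2 scale at day 9 against day 0 (SE 0.182, adjusted p = 0.0345). The other mevalonate enzymes passed in no comparison. Idi1, the isomerase that makes the allylic isoprenoid unit, averaged 28.3 ± 0.987, 21.4 ± 3.49 and 23.4 ± 4.29 CPM at days 0, 3 and 9 (SD, n = 3 each), and its adjusted p was 0.133 at day 3 against day 0. Mvk, the first mevalonate kinase, averaged 11.6 ± 1.33, 9.52 ± 1.26 and 9.72 ± 1.96 CPM on the same days, and Mvd, the decarboxylase, 9.95 ± 2.17, 11.3 ± 2.68 and 12.2 ± 1.16 CPM. Fdps, which makes farnesyl pyrophosphate, averaged 24.6 ± 1.73, 26.5 ± 5.23 and 23.5 ± 1.61 CPM. The Hmgcs1 call was lost without day 0 replicate 1 or day 0 replicate 3 (adjusted p 0.0729 to 0.0745), and the Pmvk call without any 1 of the 6 libraries of days 0 and 9 (0.0662 to 0.118). Without day 3 replicate 3, Pmvk and Idi1 were lower at day 3 than at day 0 (adjusted p = 0.015 and 0.0284) and Hmgcs1 was higher at day 9 than at day 3 (0.0284).

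From squalene onward the enzymes did not move together. Fdft1, squalene synthase and the first enzyme committed to sterols, had 51.5, 47.0 and 51.4 CPM at day 0, 62.1, 40.2 and 67.9 CPM at day 3, and 32.2, 33.0 and 26.7 CPM at day 9. Its day 9 libraries were below those of both other days, and day 3 replicate 3 lay below the other day 3 libraries. Fdft1 fell by 0.71 at day 9 against day 0 (SE 0.187, adjusted p = 0.0292) and by 0.89 at day 9 against day 3 (SE 0.188, adjusted p = 0.0249), both on the log2 scale. Lss, which closes the squalene chain into lanosterol, had 11.6, 9.55 and 10.9 CPM at day 0, 5.17, 6.99 and 4.18 CPM at day 3, and 6.37, 7.69 and 7.28 CPM at day 9. Every library of days 3 and 9 was below every day 0 library. Its level was 1.96-fold lower at day 3 than at day 0 (log2 fold change -0.97, SE 0.212, adjusted p = 0.0189), and at day 9 the log2 fold change was -0.59 (SE 0.21, adjusted p = 0.0826). Nsdhl, a dehydrogenase that helps strip methyl groups from lanosterol, had 7.47, 7.23 and 8.22 CPM at day 3, against 9.48, 11.9 and 13.5 CPM at day 0. The groups did not overlap, and it fell by 0.61 on the log2 scale (SE 0.173, adjusted p = 0.0473).

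Ebp and Dhcr7, which act on the sterol ring near the end of the route, were the enzymes that rose. Ebp, the isomerase that shifts the ring's double bond, had 14.0, 17.9 and 15.0 CPM at day 0, 22.1, 26.4 and 30.2 CPM at day 3, and 27.2, 21.6 and 22.6 CPM at day 9. Both later days lay wholly above day 0. It was 1.68-fold higher at day 3 than at day 0 (log2 fold change 0.75, SE 0.16, adjusted p = 0.0173) and 1.52-fold higher at day 9 than at day 0 (0.61, SE 0.16, adjusted p = 0.0288). Dhcr7, the reductase that yields cholesterol, had 11.2, 11.8 and 13.0 CPM at day 0, 11.5, 8.58 and 12.0 CPM at day 3, and 20.9, 17.5 and 16.2 CPM at day 9. Day 9 was above both other days, which overlapped each other. Its log2 fold change was 0.60 at day 9 against day 0 (SE 0.164, adjusted p = 0.033) and 0.77 at day 9 against day 3 (SE 0.165, adjusted p = 0.0266). Sc5d, the desaturase one step before Dhcr7, had 28.6, 30.0 and 24.7 CPM at day 9, against 34.2, 35.6 and 36.2 CPM at day 0, a fall of 0.35 on the log2 scale (SE 0.103, adjusted p = 0.0442). The 5 other enzymes of the sterol steps passed in no comparison. Sqle, squalene epoxidase, averaged 12.8 ± 1.01, 9.90 ± 3.17 and 14.2 ± 1.60 CPM at days 0, 3 and 9 (SD, n = 3 each), and Cyp51, which demethylates lanosterol, 21.2 ± 2.14, 16.8 ± 1.73 and 23.4 ± 4.61 CPM. Msmo1, an oxidase of the demethylation steps, averaged 15.8 ± 1.52, 13.7 ± 2.36 and 19.3 ± 1.23 CPM, and Hsd17b7, a reductase of those steps, 11.3 ± 0.456, 8.86 ± 0.801 and 8.35 ± 0.965 CPM. Tm7sf2, a sterol reductase, averaged 5.61 ± 2.06, 4.15 ± 0.674 and 4.81 ± 0.723 CPM.

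Calls on these enzymes were lost when 1 library was left out, some with any library of the days compared. Their log2 fold changes kept their sign in all 15 alternatives. At day 9 against day 0 they ran from -0.77 to -0.62 for Fdft1 and from 0.49 to 0.68 for Dhcr7. At day 3 against day 0, those on Lss and Ebp were lost without day 0 replicate 1 or replicate 3 (adjusted p 0.0628 to 0.0789 for Lss and 0.0675 to 0.0775 for Ebp), and that on Nsdhl without any 1 library other than day 3 replicate 3 (0.0514 to 0.157). At day 9 against day 0, those on Fdft1, Sc5d and Dhcr7 were lost without any 1 library of the days compared (0.065 to 0.105, 0.0615 to 0.164, and 0.0534 to 0.12), and that on Ebp without replicate 1 or 3 of day 0 or replicate 1 or 4 of day 9 (0.0693 to 0.112). In the comparison of day 9 with day 3, Fdft1 was lost without day 3 replicate 1, day 3 replicate 4 or any day 9 library (0.0556 to 0.115), and Dhcr7 without day 0 replicate 1, day 0 replicate 2 or any day 9 library (0.0502 to 0.068). Lss was lower at day 9 than at day 0 without day 3 replicate 3 or day 3 replicate 4 (0.0271 to 0.0414), and Hsd17b7 without day 3 replicate 3 (0.0472). Without day 3 replicate 3, Sqle, Msmo1 and Hsd17b7 were also lower at day 3 than at day 0 (adjusted p = 0.00999, 0.0329 and 0.0496). In the same setting Sqle, Msmo1, Lss and Cyp51 were higher at day 9 than at day 3 (0.00771, 0.00747, 0.0351 and 0.0392).

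**Figure D2:**
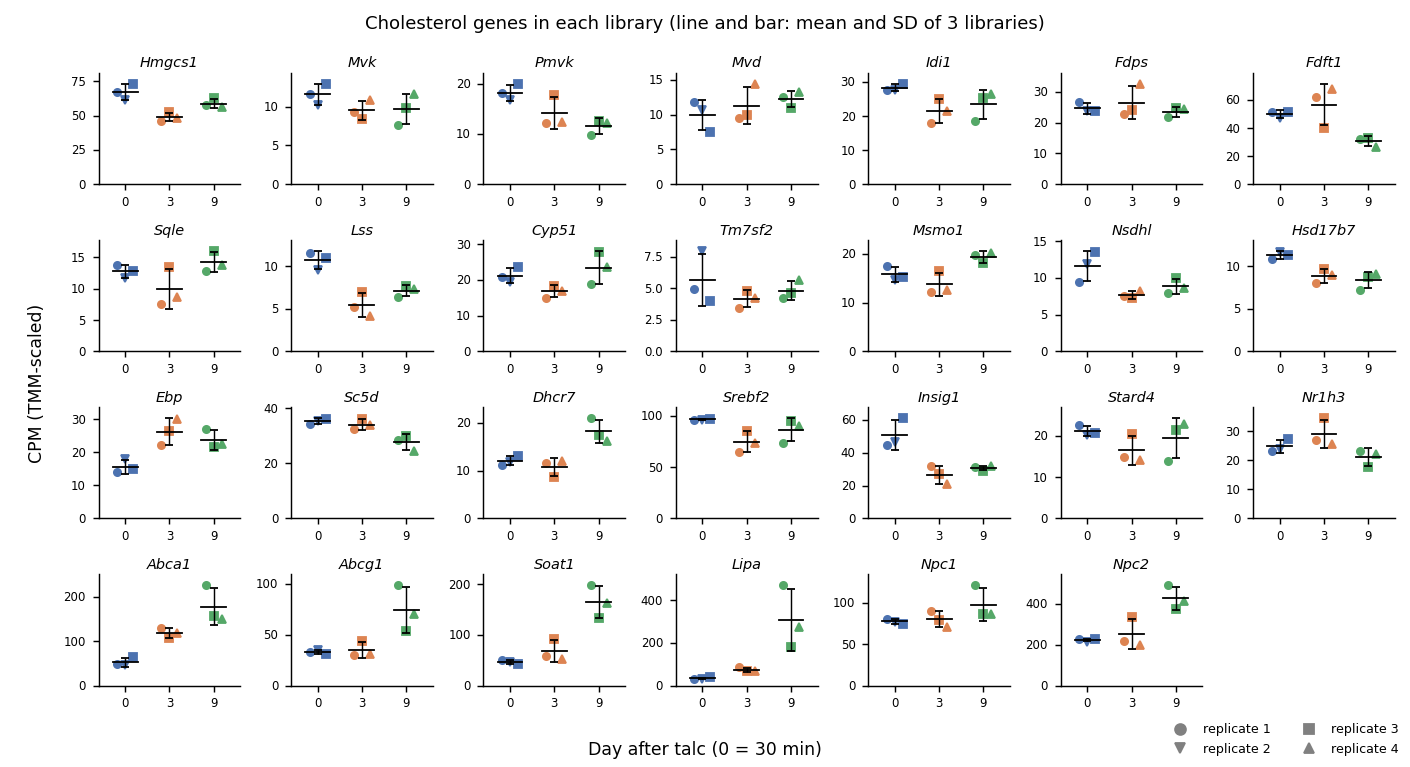
CPM (y axis, TMM-scaled, from 0, own range per panel) of each of the 27 genes in every library at days 0, 3 and 9 (x axis); symbols give the replicate number, and the line and bar give the mean and SD of 3 libraries. Abca1, Soat1 and Lipa lie above the day 0 libraries in all day 9 libraries, and Hmgcs1, Lss and Insig1 lie below the day 0 libraries in all day 3 libraries.

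Among the genes of sterol sensing and transfer, Insig1 was lower at both later days. It had 44.6, 46.4 and 61.0 CPM at day 0, 32, 27 and 21 CPM at day 3, and 31.2, 29.1 and 31.9 CPM at day 9. All libraries of days 3 and 9 were below all of day 0, and days 3 and 9 overlapped. Insig1 was 1.90-fold lower at day 3 than at day 0 (log2 fold change -0.93, SE 0.175, adjusted p = 0.0113) and 1.65-fold lower at day 9 than at day 0 (-0.72, SE 0.175, adjusted p = 0.0206). The day 3 call held without any 1 library, and the day 9 call was lost without day 0 replicate 3 or any 1 day 9 library (adjusted p 0.0595 to 0.0758). Srebf2, which encodes SREBP2, had 65.3, 85.7 and 73.6 CPM at day 3, against 96.4, 96.3 and 97.4 CPM at day 0. The groups did not overlap, but the test was not passed (log2 fold change -0.37, SE 0.132, adjusted p = 0.0903), although it was without day 3 replicate 3 (adjusted p = 0.0123). At day 9 Srebf2 had 74.0, 95.5 and 90.2 CPM, a log2 fold change of -0.16 against day 0 (SE 0.132, adjusted p = 0.414). Stard4, which carries cholesterol between membranes, averaged 21.2 ± 1.28, 16.5 ± 3.45 and 19.5 ± 4.79 CPM at days 0, 3 and 9 (SD, n = 3 each), and it passed the test only at day 3 against day 0 without day 3 replicate 3 (adjusted p = 0.0467).

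Of the efflux genes, Abca1 was higher at day 3 and Abca1 and Abcg1 at day 9. Abca1, which hands cholesterol to apolipoprotein A-I, had 48.4, 45.4 and 64.4 CPM at day 0, 130, 107 and 118 CPM at day 3, and 226, 158 and 150 CPM at day 9. The 3 days did not overlap. Abca1 was 2.25-fold higher at day 3 than at day 0 (log2 fold change 1.17, SE 0.197, adjusted p = 0.00709) and 3.37-fold higher at day 9 than at day 0 (1.75, SE 0.2, adjusted p = 0.000632), while day 9 against day 3 gave 0.58 (SE 0.194, adjusted p = 0.0983). Abcg1, which exports cholesterol to mature lipoproteins, had 33.2, 34.6 and 30.8 CPM at day 0, 30.0, 44.1 and 31.3 CPM at day 3, and 98.4, 53.3 and 70.2 CPM at day 9. Its day 3 and day 0 libraries overlapped, and day 9 lay above both. Its log2 fold change was 0.10 at day 3 against day 0 (SE 0.229, adjusted p = 0.788), 1.17 at day 9 against day 0 (SE 0.231, adjusted p = 0.00875) and 1.07 at day 9 against day 3 (SE 0.231, adjusted p = 0.0263). The last call was lost without replicate 1 or 2 of day 0, 1 or 4 of day 3, or 1 or 4 of day 9 (adjusted p 0.0521 to 0.0707); the calls on Abca1 and that on Abcg1 at day 9 against day 0 held without any 1 library. Nr1h3 itself passed in no comparison. It had 23.2, 23.9 and 27.3 CPM at day 0, 26.8, 34.4 and 25.6 CPM at day 3, and 23.2, 17.5 and 22.3 CPM at day 9, with log2 fold changes of 0.22 (SE 0.157, adjusted p = 0.349; 0.01 without day 3 replicate 3) at day 3 and -0.24 (SE 0.158, adjusted p = 0.304) at day 9 against day 0. Set against day 3, day 9 gave -0.46 (SE 0.158, adjusted p = 0.103).

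Soat1, the enzyme that esterifies cholesterol for droplets, was higher at day 9 than on either other day. It had 51.0, 47.2 and 43.2 CPM at day 0, 58.5, 92.3 and 53.1 CPM at day 3, and 198, 134 and 164 CPM at day 9. Day 9 lay wholly above day 3 and day 3 wholly above day 0, and replicate 3 was the highest at day 3. Soat1 was 3.51-fold higher at day 9 than at day 0 (log2 fold change 1.81, SE 0.229, adjusted p = 0.00102) and 2.43-fold higher at day 9 than at day 3 (1.28, SE 0.225, adjusted p = 0.015). At day 3 against day 0 its log2 fold change was 0.53 (SE 0.223, adjusted p = 0.138), and 0.18 without day 3 replicate 3. Both calls held without any 1 library, and that against day 3 was lost in a fit of only the 6 libraries compared (adjusted p = 0.0636).

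Lipa, lysosomal acid lipase, had the largest change of the 27 genes in both comparisons that end at day 9. It had 32.7, 33.0 and 38.2 CPM at day 0, 85.7, 69.6 and 67.4 CPM at day 3, and 469, 181 and 272 CPM at day 9. The days did not overlap, and the day 9 libraries were spread widely, with replicate 1 highest. That library also differed from replicates 3 and 4 of day 9 in its summed markers. It had 5480 CPM of macrophage markers, against 4480 and 4410 CPM, and 1890 CPM of cartilage and bone markers, against 283 and 143 CPM. Its alveolar type 2 markers summed to 638 CPM, against 2570 and 2840 CPM, and its adipocyte markers to 4830 CPM, against 3590 and 3260 CPM. The part of these cells in the level of Lipa was not tested. The log2 fold change of Lipa was 1.10 at day 3 against day 0 (SE 0.304, adjusted p = 0.0419), 3.15 at day 9 against day 0 (SE 0.325, adjusted p = 0.000436) and 2.05 at day 9 against day 3 (SE 0.31, adjusted p = 0.00938). Both day 9 calls held without any 1 library, and that at day 3 was lost without any 1 day 0 library, day 3 replicate 1, day 3 replicate 4 or day 9 replicate 4 (adjusted p 0.0639 to 0.131), and with RLE scaling (0.0535). Npc2, the soluble carrier of cholesterol in the lysosome, had 225, 215 and 226 CPM at day 0, 219, 334 and 198 CPM at day 3, and 489, 376 and 411 CPM at day 9. Day 9 was above both other days, and day 3 replicate 3 was high for its day. Npc2 was 1.92-fold higher at day 9 than at day 0 (log2 fold change 0.94, SE 0.204, adjusted p = 0.0132), a call lost without day 0 replicate 1, day 0 replicate 2 or day 9 replicate 1 (adjusted p 0.0523 to 0.0566). At day 9 against day 3 its log2 fold change was 0.77 (SE 0.203, adjusted p = 0.0521), and the adjusted p was 0.00276 without day 3 replicate 3. Npc1, the membrane protein that receives cholesterol from Npc2, averaged 77.6 ± 3.01, 80.3 ± 9.72 and 97.9 ± 19.6 CPM at days 0, 3 and 9 (SD, n = 3 each) and passed in no comparison (adjusted p = 0.834 at day 3 and 0.153 at day 9 against day 0).

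Taken per library, the gap between the 2 groups of genes was wider at day 3 than at day 0, and wider again at day 9. The mean log2(CPM + 0.5) of the 7 genes of efflux, storage and lysosome less that of the 20 genes of synthesis, sensing and transfer was 1.38, 1.36 and 1.41 at day 0. It was 2.20, 2.21 and 1.91 at day 3, and 3.23, 2.41 and 2.66 at day 9. The 3 days did not overlap, and day 9 replicate 1 had the widest gap. At day 9 against day 3 the median log2 fold change was positive in both groups, at 0.21 for the 20 genes and 0.77 for the 7. Because levels of different genes are not per length here, the size of the gap within 1 library carries no meaning and only its difference between libraries does.

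Cell type markers also differed between the days, some lists higher and some lower than at day 0. Of the 12 macrophage markers, 10 were higher at day 3 (12.9% of all tested genes) and 11 at day 9 (15.2% of all) than at day 0, with median log2 fold changes of 2.22 and 2.32. Only 1 was higher at day 9 than at day 3 (5.19% of all), with a median of 0.26. For the 7 genes of efflux, storage and lysosome the medians in these 3 comparisons were 0.22, 1.17 and 0.77. The summed level of the macrophage markers was 1440 to 1600 CPM at day 0, 2780 to 3730 CPM at day 3 and 4410 to 5480 CPM at day 9, and none was at 0. Of the 10 fibroblast markers, 6 were higher at day 9 than at day 0 (15.2% of all) and 7 were higher at day 9 than at day 3 (5.19% of all), and their summed level was 7270 to 10700, 7110 to 17100 and 28600 to 31100 CPM at days 0, 3 and 9. Of the 10 alveolar type 2 markers 1 was lower at day 9 than at day 0, and of the 10 endothelial markers 2 were, beside 5.54% of all tested genes. Endothelial markers summed to 715 and 1050 CPM in replicates 1 and 4 and to 1860 CPM in replicate 3 of day 3, and to 1870 to 2080 CPM at day 0. Adipocyte markers summed to 4980 to 6610, 2230 to 5060 and 3260 to 4830 CPM at days 0, 3 and 9. Skeletal muscle markers summed to 99100 to 131000, 55900 to 120000 and 68800 to 86200 CPM, and the log2 fold change at day 9 against day 0 was negative for all 12, with a median of -0.58. Of these, 0 passed the test at day 9 against day 0 in edgeR (1 at an unadjusted p under 0.05) or limma-voom, and 2 passed in DESeq2. At day 3 against day 0, 1 muscle marker was lower in edgeR and in limma-voom, and 3 were lower in DESeq2. In that comparison 1 adipocyte and 1 fibroblast marker were also lower in edgeR (3.29% of all tested genes). There 1 fibroblast marker and 1 cartilage and bone marker were higher (12.9% of all). Cartilage and bone markers summed to 298, 287 and 649 CPM at day 0, 1470, 85.8 and 154 CPM at day 3, and 1890, 283 and 143 CPM at day 9, so they were high in replicate 1 of both later days. The part of these cell types in the results was not tested, and in whole tissue a change in the number of cells of a type and a change in RNA per cell cannot be told apart.

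**Figure D3:**
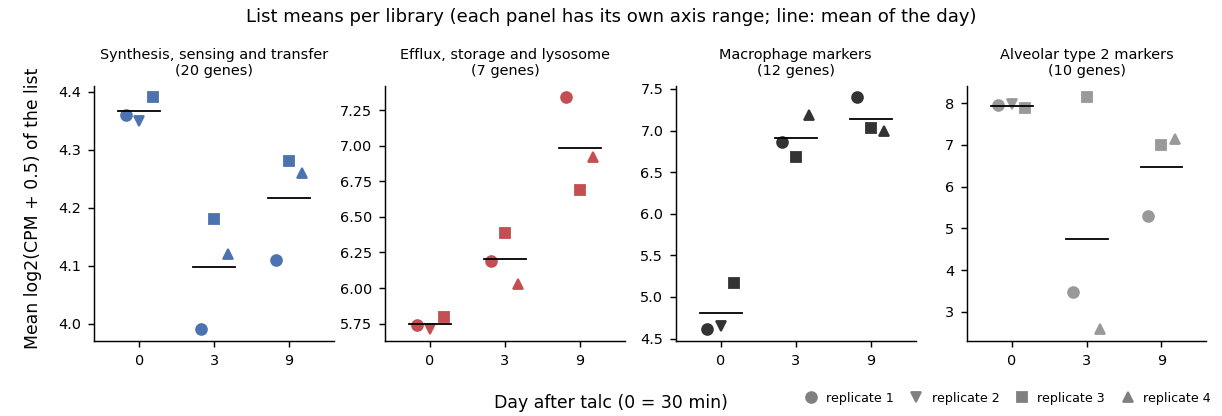
Mean log2(CPM + 0.5) per library (y axis, own range per panel) at days 0, 3 and 9 (x axis) for the 20 genes of synthesis, sensing and transfer, the 7 genes of efflux, storage and lysosome, 12 macrophage markers and 10 alveolar type 2 markers; symbols give the replicate number and lines the mean of 3 libraries. The 7 genes and the macrophage markers are lowest in the 3 day 0 libraries, the 20 genes are highest there, and day 3 replicate 3 has alveolar type 2 markers at 8.14 where the other day 3 libraries have 3.48 and 2.58.

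A further 39 genes of sterol uptake, sensing, transport and conversion were examined as a list, all of which passed the filter. Of these, 9 were higher and 1 was lower at day 3 than at day 0, beside 12.9% and 3.29% of all tested genes. At day 9, 10 were higher and 1 was lower than at day 0 (15.2% and 5.54% of all), and 4 were lower than at day 3 (3.66% of all). None was higher at day 9 than at day 3 by edgeR or limma-voom, with 5 at an unadjusted p under 0.05 in edgeR, and 5 were higher by DESeq2. Their median log2 fold change was 0.26, 0.01 and 0.01 in those comparisons. The genes of this list named below were picked for the smallest adjusted p in any comparison, so they do not stand for the list. Plin2, which coats lipid droplets, averaged 61.9 ± 16.1, 205 ± 21.1 and 335 ± 91.5 CPM at days 0, 3 and 9 (SD, n = 3 each). It was 3.32-fold higher at day 3 (adjusted p = 0.003) and 5.41-fold higher at day 9 (adjusted p = 0.000416) than at day 0. Apoe, the apolipoprotein that macrophages secrete with exported cholesterol, averaged 404 ± 150, 759 ± 275 and 1720 ± 465 CPM. Its log2 fold change against day 0 was 0.91 at day 3 (SE 0.355, adjusted p = 0.113) and 2.09 at day 9 (SE 0.366, adjusted p = 0.00497). Lrp1, an endocytic receptor for apolipoprotein E particles, averaged 427 ± 29.2, 636 ± 127 and 1040 ± 204 CPM and was 2.43-fold higher at day 9 than at day 0 (adjusted p = 0.00258). Stard5, a sterol-binding transfer protein, was 2.14-fold higher at day 9 than at day 0 (adjusted p = 0.00358). Cyp7b1, which hydroxylates oxysterols, averaged 1.10 ± 0.305, 7.30 ± 2.67 and 5.37 ± 1.64 CPM, and was 6.61-fold higher at day 3 and 4.86-fold higher at day 9 than at day 0 (adjusted p = 0.00376 and 0.00472). Lcat, which esterifies cholesterol on lipoproteins, had low levels of 0.335 ± 0.0411, 1.63 ± 0.0868 and 2.43 ± 0.222 CPM, with log2 fold changes against day 0 of 2.26 at day 3 and 2.83 at day 9 (adjusted p = 0.00325 and 0.000609).

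**Figure D4:**
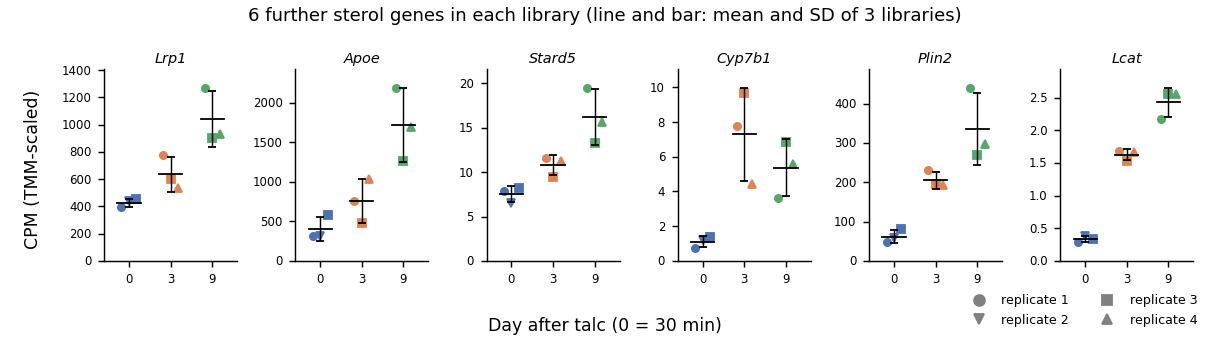
CPM (y axis, TMM-scaled, from 0, own range per panel) of 6 further sterol genes in every library at days 0, 3 and 9 (x axis); symbols give the replicate number, and the line and bar give the mean and SD of 3 libraries. The 6 genes were picked for the smallest adjusted p in any comparison, a choice that favours days that do not overlap. In each panel all 3 day 9 libraries are above all 3 day 0 libraries, as in 29.3% of all tested genes. For Plin2 the day 3 libraries, at 192 to 230 CPM, lie between those of days 0 and 9.

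The authors' deposited table, tested by a method not given in the sources used here, calls fewer of the 27 genes at an FDR-adjusted p under 0.05. For day 3 against day 0 the authors' deposited table has as higher 2 genes (Abca1 and Lipa) and as lower 1 (Insig1). At day 9 against day 0 the authors' deposited table has 5 higher (Abca1, Abcg1, Lipa, Npc2 and Soat1) and 2 lower (Fdft1 and Insig1), and at day 9 against day 3 it has 3 higher (Abcg1, Lipa and Soat1) and 1 lower (Fdft1).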

How the data were processed

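RNA-seq libraries of 9 tissue samples, 3 per day, were compared. Per the labels' protocols, RNA was extracted with a QIAGEN miRNeasy Micro kit, poly(A) RNA was selected and libraries were made with a NEBNext Ultra RNA kit. No source used here names the strand of the libraries, the aligner or the counter, and without strand the reads of genes that overlap or lie antisense cannot be told apart. GRCm38 and mm10 are the builds in the submitters' processing notes. The authors deposited 1 table of read counts per gene, of which 7737 of 25652 genes had no read, and 3 emptied lines were not used. The deposited columns headed RPKM are the count times 1 constant per library, so gene length does not enter, and they were not used for levels. The log2 fold changes and FDR-adjusted p-values the authors deposited were used only where named.

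Counts were tested with edgeR 4.0.16 in R 4.3.3: filterByExpr by day (14794 genes kept), TMM factors, and a two-sided quasi-likelihood F test over all 9 libraries with 1 mean per day (6 residual degrees of freedom). P-values were Benjamini-Hochberg adjusted over all tested genes, with a threshold of 0.05. CPM are counts set relative to the TMM-scaled total of their library. SE is a standard error of the log2 fold change derived from the test. It is the size of the log2 fold change divided by the square root of its F statistic. Alternatives used limma 3.58.1 and DESeq2 1.42.0. Each library was counted once. Within a day, the counts of every pair of libraries differed beyond sampling noise by a chi-square over genes. Libraries made separately from the same mouse could also differ in this way, so the chi-square cannot show that they came from separate mice. Figures used matplotlib 3.10.9 in Python 3.11.15.

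All 27 members are named, and of the 39 further sterol genes the 6 with the smallest adjusted p in any comparison. Members and lists were chosen with earlier results of these data known. Promoters and their coordinates are from RefSeq, GRCm38.p6, matched by symbol; no coordinates of the deposited table are given. Fdps, Fdft1, Sqle, Abcg1, Stard4 and Npc1 were not matched.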

Additional observations from a re-analysis of the deposited data

How the results depend on the processing

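Each of the 81 member results (27 genes, 3 comparisons) was recomputed under 15 alternatives. Of the 23 calls, 8 held without any 1 library. DESeq2 lost 0 and limma-voom 1 (Nsdhl at day 3, adjusted p = 0.0504). RLE scaling lost Lipa at day 3 (0.0535), and no filter on low counts lost Nsdhl at day 3 (0.0621) and Sc5d at day 9 against day 0 (0.0618). The fit of only the 6 libraries compared lost 8, namely Hmgcs1, Lss, Nsdhl and Ebp at day 3 and Fdft1, Dhcr7, Abcg1 and Soat1 at day 9 against day 3 (0.0519 to 0.0928). Lipa, Soat1 and Abca1 at day 9 against day 0 passed under all 15. Without 1 library, calls ran from 1 to 3 higher and 1 to 11 lower at day 3 against day 0, 4 to 7 higher and 0 to 6 lower at day 9 against day 0, and 2 to 10 higher and 0 to 1 lower at day 9 against day 3. The 6-library fit gave 1 lower at day 3 against day 0, and 1 higher and 0 lower at day 9 against day 3, where DESeq2 gave 7 higher. The rule used for pairing by replicate number, a correlation over 0.1 in every pair, was not met. Same-numbered libraries of days 0 and 3 correlated at -0.07 and -0.06, and those of days 0 and 9 at -0.16 and -0.05. Those of days 3 and 9 correlated at 0.47, 0.32 and -0.24 for replicates 1, 3 and 4. Because 1 pair is enough to fail it, the rule cannot exclude pairing of some libraries of days 3 and 9. Day 3 replicate 3 correlated best, at 0.52, with day 9 replicate 4. With the replicate block 20 calls were lost, leaving 0 higher and 0 lower at day 3, 3 higher and 0 lower at day 9 against day 0, and 0 and 0 at day 9 against day 3. DESeq2 also called Srebf2 lower at day 3 and Lss and Hsd17b7 lower at day 9 against day 0, and Msmo1, Abca1 and Npc2 higher at day 9 against day 3. Signs turned only in results that were not called. Without 1 library, the log2 fold change at day 3 against day 0 ran from -0.03 to 0.32 for Mvd, -0.07 to 0.20 for Fdps, -0.17 to 0.20 for Abcg1, -0.04 to 0.13 for Npc1 and -0.16 to 0.32 for Npc2. At day 9 against day 0 it ran from -0.42 to 0.11 for Tm7sf2 and -0.25 to 0.07 for Stard4, and at day 9 against day 3 from -0.05 to 0.23 for Mvk and -0.15 to 0.07 for Hsd17b7. With the replicate block, Fdps was -0.03 at day 3 and Tm7sf2 0.03 at day 9 against day 0, and in the 6-library fit Npc1 was -0.01 at day 3. The cause of these changes was not tested. Over all genes, 1904 were higher and 486 lower at day 3 against day 0, with 186 and 28 under the block, 749 and 175 in the 6-library fit, and 2139 and 1227 in DESeq2. Against day 0, 2246 were higher and 820 lower at day 9, with 777 and 123 under the block, 3318 and 3014 in the 6-library fit, and 2502 and 1567 in DESeq2. Against day 3, 768 were higher and 542 lower at day 9, with 82 and 45 under the block, 167 and 91 in the 6-library fit, and 1368 and 1033 in DESeq2. With 3 libraries per day, differences smaller than the spread between libraries were not detectable.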
